A study of Mus musculus with 4 samples.

Results

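The genes described here encode the Fc receptors for IgG of mouse macrophages and their partners: the activating receptors Fcgr1, Fcgr3 and Fcgr4, the signalling adaptor Fcer1g, the inhibitory receptor Fcgr2b and the recycling receptor Fcgrt. They were taken by name, as the array probes whose RefSeq accession belongs to 1 of these 6 genes. All 6 were found, through 7 probes (2 of them for Fcgr2b), among 24067 genes tested. The RNA came from Kupffer cells, the macrophages that reside in the liver sinusoids, isolated from male C57BL/6 mice aged 8 weeks by collagenase perfusion and a Percoll gradient. The cultures were kept for 24 h in RPMI medium with 0.1% serum that held either 200 nM maresin 1 (MaR1, 2 arrays) or the ethanol vehicle (Veh, 2 arrays). Maresin 1 is derived from the omega-3 fatty acid docosahexaenoic acid and is known for its part in the resolution of inflammation.

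Fc receptors let macrophages recognise particles and immune complexes coated with antibody. The ligand-binding chains Fcgr1, Fcgr3 and Fcgr4 sit in the membrane with Fcer1g, whose cytoplasmic ITAM is phosphorylated by Src family kinases and then recruits the kinase Syk, which leads to phagocytosis, an oxidative burst and cytokine release. Fcgr2b binds the same immune complexes but carries an ITIM, which recruits the lipid phosphatase SHIP1 (Inpp5d) and dampens that signal, so the relation of activating receptors to Fcgr2b is often used to describe how readily a macrophage responds to IgG. Fcgrt, the neonatal Fc receptor, pairs with B2m and returns IgG and albumin from endosomes to the cell surface. In the liver, Kupffer cells and sinusoidal endothelial cells are known for clearing immune complexes from blood.

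With maresin 1, all 3 activating receptors and the inhibitory receptor were higher by small amounts, between 1.22-fold and 1.30-fold, whereas the adaptor Fcer1g and the recycling receptor Fcgrt did not pass the test. By limma's moderated test with Benjamini-Hochberg adjustment over all genes (threshold 0.05), 4 of the 6 genes were called higher and 0 lower. In the same fit 11.2% of all genes were called higher and 12.7% lower. The median difference was 0.29 over the 6 genes and -0.02 over all genes, on the log2 scale. Among the 4367 genes whose probe was at least as bright as that of the dimmest Fc receptor gene, 14% were called higher and 5.7% lower, and the median difference was 0.08. In all 6 genes the MaR1 and Veh arrays did not overlap, but this held for 69.6% of the genes with a value on all 4 arrays. Calls at this size are fragile: leaving out any 1 of the 4 arrays ended all 4 of them, with the direction kept, as detailed after the values.

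The promoters of the 4 genes called higher are shown because these genes moved in the same direction, 3 of them from 1 cluster on chromosome 1. Each is the RefSeq window from 250 bases before to 50 bases after the annotated start, 5′ to 3′ on the strand of the gene, in build GRCm38.p6. Capitals mark matches, on either strand, to GAGGAA (a core of the sites bound by PU.1, the master regulator of macrophages), TTCNNNGAA (a form bound by factors of the STAT family) or GAAA followed by GAAA after 2 bases of any kind (a form bound by interferon regulatory factors). The motifs were chosen with the members already known, and TTC and GAA spaced by 4 bases of any kind, the form that STAT6 prefers, were searched as well.
Fcgr1, chr3:96293920-96294219, minus strand: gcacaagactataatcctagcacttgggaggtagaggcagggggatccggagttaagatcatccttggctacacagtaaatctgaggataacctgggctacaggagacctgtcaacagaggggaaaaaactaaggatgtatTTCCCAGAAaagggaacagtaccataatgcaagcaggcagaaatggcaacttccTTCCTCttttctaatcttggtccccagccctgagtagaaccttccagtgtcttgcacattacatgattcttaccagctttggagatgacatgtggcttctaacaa
Fcgr3, chr1:171059354-171059653, minus strand: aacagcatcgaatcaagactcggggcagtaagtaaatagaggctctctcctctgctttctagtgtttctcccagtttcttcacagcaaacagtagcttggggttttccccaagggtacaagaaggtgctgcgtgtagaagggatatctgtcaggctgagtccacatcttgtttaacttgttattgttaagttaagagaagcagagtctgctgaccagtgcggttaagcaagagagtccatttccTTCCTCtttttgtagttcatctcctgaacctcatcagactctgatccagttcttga
Fcgr4, chr1:171018676-171018975, plus strand: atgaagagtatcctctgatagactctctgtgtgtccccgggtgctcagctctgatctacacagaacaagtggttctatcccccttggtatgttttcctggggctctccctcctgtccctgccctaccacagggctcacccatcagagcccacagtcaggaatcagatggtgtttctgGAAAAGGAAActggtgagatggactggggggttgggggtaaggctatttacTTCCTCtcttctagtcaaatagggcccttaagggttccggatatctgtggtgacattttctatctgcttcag
Fcgr2b, chr1:170976022-170976321, minus strand: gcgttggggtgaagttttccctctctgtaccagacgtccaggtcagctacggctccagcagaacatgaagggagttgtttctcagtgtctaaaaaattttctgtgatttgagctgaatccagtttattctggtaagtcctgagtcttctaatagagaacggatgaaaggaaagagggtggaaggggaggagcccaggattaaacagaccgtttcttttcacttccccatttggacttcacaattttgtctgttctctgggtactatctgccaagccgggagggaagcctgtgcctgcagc

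The 3 activating receptor genes each held GAGGAA on the opposite strand, printed as TTCCTC, at bases -55 to -50 from the start in Fcgr1, -6 to -1 in Fcgr3 and -22 to -17 in Fcgr4. Of all 32851 RefSeq windows of 300 bases, 28.3% held this motif. TTCNNNGAA was found in the Fcgr1 window, at -109 to -101, and in 8.3% of all windows. Fcgr4 held the spaced GAAA repeat at -73 to -64, a form present in 3.44% of all windows. The form with 4 bases between TTC and GAA occurred in 6.95% of all windows and in none of the 7 windows of the 6 genes (Fcgr3 has 2 overlapping windows, of which 1 is shown). The windows of Fcgr2b, Fcer1g and Fcgrt held none of the 4 letter patterns. A match is a description of these letters only.

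Fcgr1 encodes CD64, the receptor that binds single IgG molecules with high affinity. Its level, as log2 of the processed signal relative to the array's 75th percentile, was 6.44 and 6.45 on the MaR1 arrays, against 6.13 and 6.19 on the Veh arrays. The processed signals before scaling were 82170 and 74170 with MaR1 and 67090 and 72350 with Veh, so the groups did not overlap before scaling either, although the second MaR1 array lay close to the second Veh array. The log2 difference, MaR1 minus Veh, was 0.29 ± 0.06 (± gives the SE from limma and n = 2 for either treatment, here and for later differences), a 1.22-fold rise (adjusted p = 0.0365 by limma, 95% interval 0.13 to 0.45 on the log2 scale).

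Fcgr3 (CD16) and Fcgr4 (CD16-2) bind IgG in immune complexes, Fcgr4 with the higher affinity for some subclasses. Fcgr3 stood at 3.91 and 3.86 with MaR1 and at 3.52 and 3.52 with Veh on the same log2 scale. The Veh arrays were nearly equal, and both MaR1 arrays lay above them. Fcgr3 rose by 0.37 ± 0.06 on the log2 scale, 1.29-fold, with the smallest adjusted p of the 6 genes (0.0189 by limma). For Fcgr4 the levels were 5.41 and 5.48 with MaR1, against 5.18 and 5.14 with Veh. Its log2 difference of 0.28 ± 0.06 (1.22-fold, adjusted p = 0.0399 by limma) was close in size to that of Fcgr1. Across all genes tested, 31.7% had a difference larger in size than that of Fcgr1 and 32% larger than that of Fcgr4.

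Fcgr2b, the inhibitory receptor, was measured by 2 probes, and both were higher with MaR1. At the brighter probe, designed to NM_001077189, the levels were 4.37 and 4.44 with MaR1, against 3.97 and 4.07 with Veh. Its log2 difference was 0.38 ± 0.07 (1.30-fold, adjusted p = 0.0274 by limma, 95% interval 0.20 to 0.57). At the dimmer probe, designed to NM_010187, the levels were 3.24 and 3.15 with MaR1 and 2.75 and 2.82 with Veh, and in a fit over all probes the log2 difference was 0.41 ± 0.07 (adjusted p = 0.0209 by limma). The 2 probes therefore gave differences within their errors of each other. Fcgr2b had the largest difference of the 6 genes, and 22% of all genes had one larger in size.

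**Figure D1:**
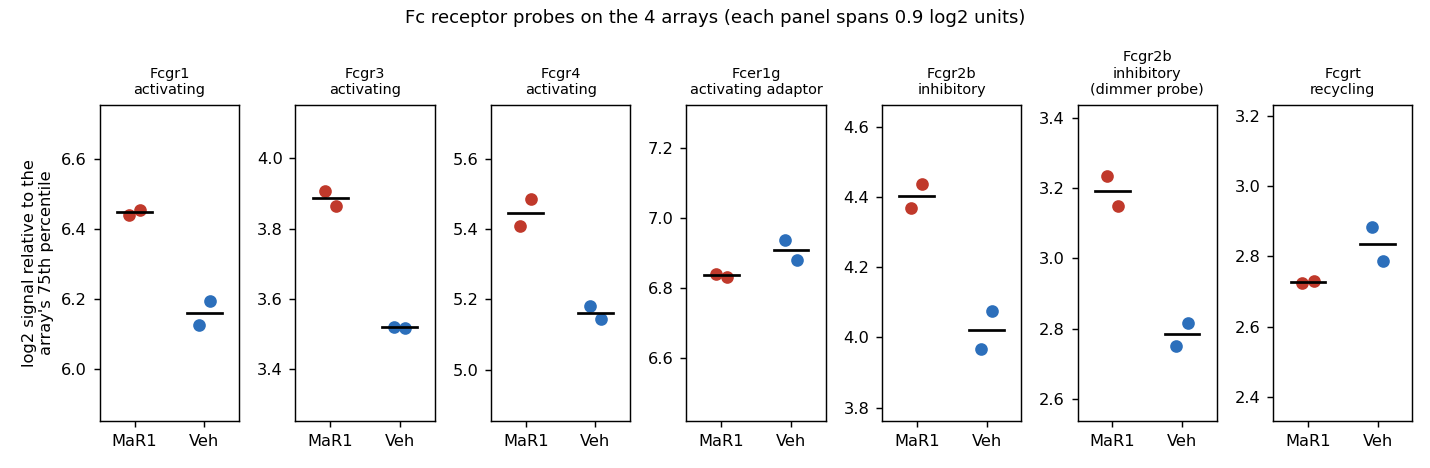
Level of each Fc receptor probe (log2 of the processed signal relative to the array's 75th percentile, vertical axis) on the 2 MaR1 and 2 Veh arrays (points), with the group mean as a bar. The panels have different ranges but the same span of 0.9. Both MaR1 arrays lie above both Veh arrays for Fcgr1, Fcgr3, Fcgr4 and both Fcgr2b probes, and below them for Fcer1g and Fcgrt, where the gap is small.

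The relation of each activating receptor to Fcgr2b changed by less than either gene did. Relative to Fcgr2b on the same array, and to the Veh mean of that relation, the change of Fcgr3 was 0.04 and -0.07 on the MaR1 arrays, against 0.05 and -0.05 on the Veh arrays, so the groups overlapped. Fcgr1 had -0.07 and -0.12 with MaR1, against 0.02 and -0.02 with Veh, a mean of -0.10, with both MaR1 arrays below both Veh arrays. Fcgr4 also averaged -0.10, with -0.10 and -0.09 on the MaR1 arrays and 0.07 and -0.07 on the Veh arrays, again without overlap. With quantile normalization the means were -0.15 for Fcgr1 and -0.14 for Fcgr4. The exact permutation test (two-sided, 5 genes compared with Fcgr2b) gave p = 0.333 for Fcgr1 and Fcgr4, the smallest value that 2 against 2 arrays can give, and p = 0.667 for Fcgr3, so this test can show neither a shift nor its absence.

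The adaptor and the recycling receptor were listed slightly lower with MaR1, by amounts that did not pass. Fcer1g, the shared ITAM chain, stood at 6.84 and 6.83 with MaR1, against 6.94 and 6.88 with Veh. The log2 difference was -0.07 ± 0.06 (adjusted p = 0.401 by limma), and its 95% interval, -0.23 to 0.08, lies below the estimates of the 4 genes that rose. Fcgrt was at 2.72 and 2.73 with MaR1 and at 2.88 and 2.79 with Veh, a difference of -0.11 ± 0.06 (adjusted p = 0.264 by limma, 95% interval -0.28 to 0.06). The groups did not overlap for either gene, yet the gap between their nearest arrays was no larger than the gap within the Veh group. Relative to Fcgr2b, Fcer1g changed by -0.42 and -0.49 and Fcgrt by -0.46 and -0.52 on the MaR1 arrays, outside the Veh arrays at 0.08 and -0.08 for Fcer1g and 0.10 and -0.10 for Fcgrt (exact permutation p = 0.333 for both, again the smallest possible).

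**Figure D2:**
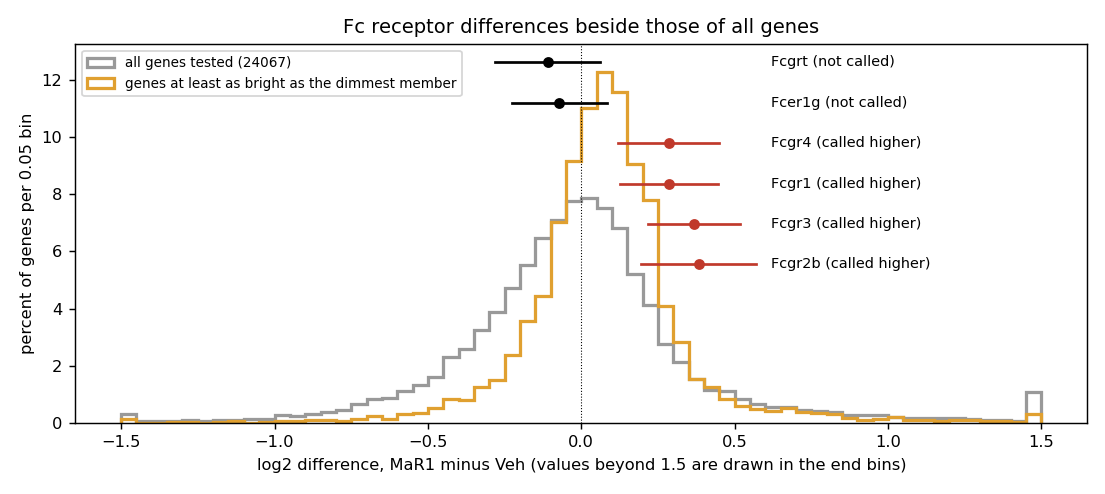
Distribution of the log2 difference, MaR1 minus Veh (horizontal axis), as the percent of genes per bin (vertical axis) for all 24067 genes and for the 4367 genes at least as bright as the dimmest Fc receptor gene. Points with bars give the 6 Fc receptor genes and their 95% intervals, placed at arbitrary heights. The 4 called genes lie at 0.28 to 0.38, on the upper shoulder of both distributions, and Fcer1g and Fcgrt near the centre.

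The 4 rises kept their direction under the 13 or 14 alternatives run for each gene but depended on them for significance. Most of these alternatives could not have reversed a direction. Some reuse the same probe values and return the same difference, and leaving out 1 array cannot reverse groups that do not overlap. The direction was open with quantile normalization, normexp and the authors' values, and for Fcgr2b also where its second probe entered. Scaling mattered most for Fcgr1 and Fcgr4. With quantile normalization their log2 differences were 0.16 and 0.16 (adjusted p = 0.14 and 0.112 by limma). They were 0.16 and 0.16 with the values the authors tabulated (0.125 and 0.103), while Fcgr3 and Fcgr2b stayed called under both. Fcer1g and Fcgrt lay further below 0 under both, each at -0.16, and were not called. With quantile normalization their adjusted p was 0.099 and 0.138 by limma, and 0.0922 and 0.129 with the authors' values. Without any 1 of the 4 arrays the adjusted p by limma ranged from 0.0684 to 0.0927 for Fcgr3, from 0.0725 to 0.116 for Fcgr2b, from 0.105 to 0.16 for Fcgr1 and from 0.0815 to 0.16 for Fcgr4.

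**Figure D3:**
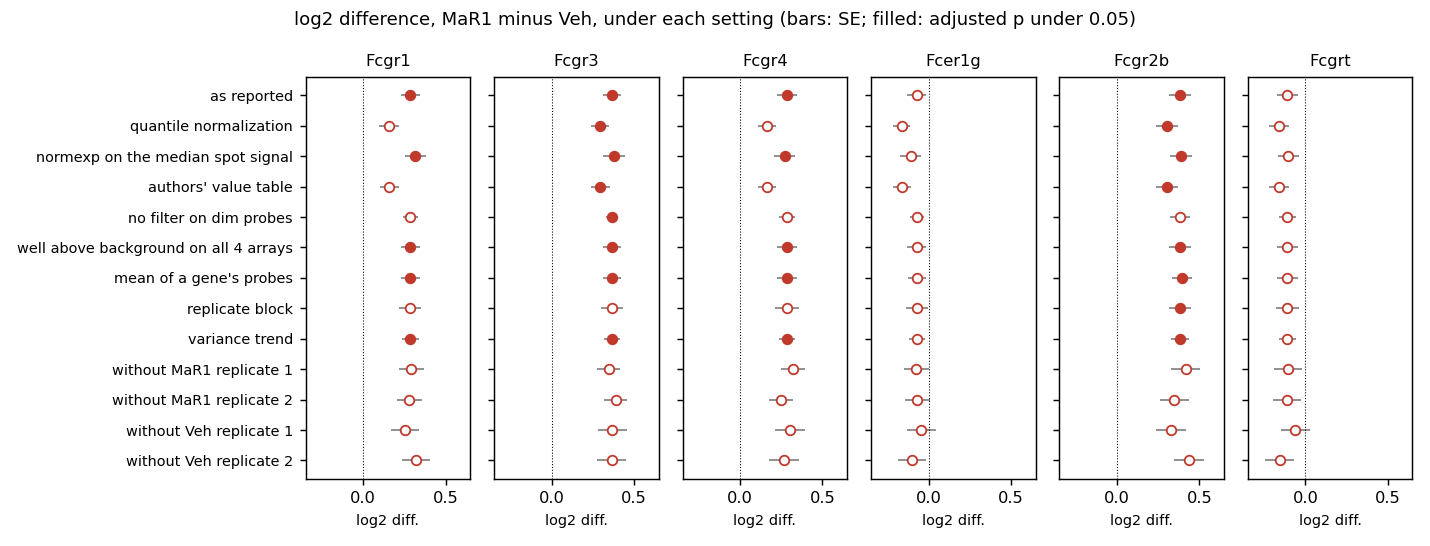
log2 difference, MaR1 minus Veh (horizontal axis), of each Fc receptor gene under each processing setting (rows), with the SE as a bar and filled points where the adjusted p was under 0.05. Fcgr1, Fcgr3, Fcgr4 and Fcgr2b stay right of 0 and Fcer1g and Fcgrt left of 0 in every row, and no point is filled in the rows that leave out an array.

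Whether the 2 arrays of a treatment stem from different mice or dishes is not stated in the labels, and the p-values therefore reflect array-to-array spread that may be technical. All arrays were on 1 slide with the groups in different positions, so position and treatment cannot be told apart. All 8 Kupffer cell markers, Clec4f, Vsig4, Timd4 and Cd5l among them, were well above background, and Marco was the brightest. Most measured markers of other cell types were well above background too, so this does not tell cell types apart. The Kupffer cell markers had the largest sum of the marker lists. It was 850 and 843 times the 75th percentile with MaR1, against 934 and 895 with Veh. Of these 8 markers 1 was higher (Csf1r, log2 difference 0.29 ± 0.07) and 1 lower (Adgre1, -0.67 ± 0.06). These shares, 12.5% each way, stand beside 11.2% of all genes higher and 12.7% lower. With quantile normalization Adgre1 was still called lower and Csf1r was not called. In RNA from a whole culture, fewer cells of a type and less RNA per cell cannot be told apart.

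Fc receptors are also made by other cells that such a preparation can hold, and several of their markers differed between the same arrays. The counts of markers called, here and in the next paragraph, stand beside 11.2% of all genes higher and 12.7% lower. Markers of sinusoidal endothelial cells, which make Fcgr2b and Fcgrt, summed to 82.2 and 82 with MaR1 and to 67.7 and 71.1 with Veh. Of the 12 measured, 4 were higher and 2 lower. Unlike the sum, the median log2 difference of these cells' markers was below 0 (-0.09), with 5 differences above 0 and 7 below. Stab2, their brightest marker, rose by 0.47 ± 0.07 on the log2 scale, and without it the sums were 54.2 and 51.6 with MaR1 and 47 and 49.5 with Veh. Sums without the brightest gene, here and below, were added after the data were seen. B cell markers were dim in both groups, at 3.83 and 3.59 with MaR1 and 2.14 and 2.39 with Veh, with 4 of 8 higher (Cd79b, the brightest, by 0.74 ± 0.08) and 1 lower, and Ighm and Blk not measured. Neutrophil markers, at 2.24 and 2.28 with MaR1 and 2.53 and 2.48 with Veh, had 0 of 8 higher and 1 lower; the brightest, Elane, had a difference of -0.14, and Ly6g, Ngp and Cxcr2 were not measured.

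Monocyte markers summed to 256 and 244 with MaR1 and 226 and 217 with Veh (2 of 8 higher, 3 lower), with a difference of -0.04 for the brightest, Ly6c2. Without Ly6c2 the sums were 135.6 and 133.5 with MaR1, against 106 and 99.96 with Veh. Dendritic cell markers reached 74.2 and 74.7 with MaR1, against 50.6 and 47.2 with Veh, and 7 of 9 were higher. The brightest, Siglech, was at -0.28 ± 0.09 and did not pass, and its dimmer probe, at 0.15 ± 0.17, did not pass either. Without Siglech the sums were 50.4 and 51.9 with MaR1, against 20.4 and 20.9 with Veh. For NK and T cells the sums were 62.2 and 69 with MaR1 and 39.3 and 38 with Veh (2 of 11 higher, 5 lower), with a median log2 difference of -0.29. Gzma alone, which rose by 1.37 ± 0.09, made the sum higher: without it the sums were 17.1 and 17.1 with MaR1, against 20 and 19.7 with Veh. Mast cell and basophil markers had 1 of 6 higher, their brightest, Kit (0.69 ± 0.06), and 1 lower, at sums of 10.3 and 10.2 with MaR1 and 7.16 and 7.49 with Veh. Without Kit these sums were 1.38 and 1.16 with MaR1, against 1.69 and 1.81 with Veh, so the direction of the sum rests on Kit. Hepatocyte markers (16.4 and 17.6 with MaR1, 20.5 and 19.1 with Veh, 0 of 7 higher, 1 lower, Alb at -0.23) and stellate cell markers (3.06 and 3.12 with MaR1, 3.95 and 4.07 with Veh, 0 of 6 higher, 2 lower, among them Dcn, the brightest, at -0.37) summed lower with MaR1. The sums of B cell, neutrophil, hepatocyte and stellate cell markers kept their direction without their brightest gene. The part of other cell types in the Fc receptor differences was not tested.

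Calls among other receptors that bind antibody or resemble Fc receptors were no more frequent than among all genes. Of 14 listed, 10 were measured, with 1 higher, 1 lower and 8 that missed the threshold (median log2 difference 0.10). These shares, 10% each way, are near the 11.2% and 12.7% of all genes, and 8 of the 10 differences were above 0. Fcer1a and Ms4a2, the IgE receptor chains that pair with Fcer1g on mast cells and basophils, were not well above background on both arrays of either group. Fcer2a (CD23, the low-affinity IgE receptor of B cells) had a log2 difference of 1.25 ± 0.23 (higher) and Fcrl1, a B cell receptor of the Fc receptor-like family, one of -1.20 ± 0.15 (lower), both at dim probes. Leaving out an array in turn ended the call of Fcer2a in 3 of 4 fits and that of Fcrl1 in 1. B2m, the partner of Fcgrt, had a difference of 0.01 ± 0.06 and did not pass, with a sign that changed in 4 of 12 alternatives.

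Among genes that act close to the ITAM, 4 of 31 measured rose, 6 fell and 21 did not pass, with a median log2 difference of -0.08. Dok3, counted among the falls, restrains the signal rather than carrying it onward. The shares of 12.9% higher and 19.4% lower stand beside 11.2% and 12.7% of all genes, so the counts are not a result about the list. Syk itself, named after its value was seen, had a difference of -0.01 ± 0.06 and Tyrobp, the adaptor with an ITAM that serves other myeloid receptors, -0.36 ± 0.09 (adjusted p = 0.0524 by limma); with quantile normalization Tyrobp was called lower. The adaptor Dok3, which restrains immune receptor signals in macrophages and B cells, fell most (-0.81 ± 0.07). Vav3, a guanine nucleotide exchange factor, rose by 0.65 ± 0.06, the adaptor Lat2 by 0.58 ± 0.06 and the kinase gene Src by 0.52 ± 0.06. The second probe of Src had a value of 0.09 and did not pass. Calls for Dok3, Vav3 and Lat2 held whichever array was left out.

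Among inhibitory receptors, phosphatases and ligases that brake these signals, 5 of 20 measured genes fell, 1 rose and 14 did not pass, with a median log2 difference of -0.18. The shares of 25% lower and 5% higher stand beside 12.7% and 11.2% of all genes. Inpp5d, the phosphatase that Fcgr2b recruits, fell by 0.48 on the log2 scale (-0.48 ± 0.06, adjusted p = 0.0128 by limma), while Fcgr2b itself was higher. The call of Inpp5d was lost in 3 of the 4 fits that left out an array. Clec12a, an inhibitory lectin receptor, fell (-0.67 ± 0.06), as did Sirpa (-0.38 ± 0.06), the receptor for CD47 that restrains phagocytosis, whose call was lost without any 1 of the 4 arrays. Cblb, a ubiquitin ligase that limits immune receptor signals, rose by 0.94 ± 0.09, and both it and Clec12a held whichever array was dropped.

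The oxidative burst that follows Fc receptor engagement is made by the NADPH oxidase. Of its 8 genes, 4 fell, 0 rose and 4 did not pass, with a median log2 difference of -0.25. The shares of 50% lower and 0% higher stand beside 12.7% and 11.2% of all genes. Rac2 is counted among the falls both here and on the actin list below. Cybb, the catalytic subunit of the phagocyte oxidase, fell by 0.67 on the log2 scale (-0.67 ± 0.07) and kept its call whichever array was left out. Ncf1 (-0.43 ± 0.06) and the GTPase Rac2 (-0.31 ± 0.06) fell too, but lost their calls without any 1 of the 4 arrays, and of the 2 dimmer probes of Ncf1 1 was lower (-0.63 ± 0.06) and 1 higher (0.51 ± 0.09), so its probes disagree. On the list of actin regulators of the phagocytic cup, 4 of 25 fell, 2 rose and 19 did not pass, with a median of -0.09, and with the probes of a gene averaged 3 fell and 3 rose. The shares of 16% lower and 8% higher are near those of all genes (12.7% and 11.2%). Coro1a (-0.83 ± 0.07), an actin-binding protein of leukocytes, and Elmo1 (-0.75 ± 0.08), which helps activate Rac, fell, and their calls held whichever array was dropped, while Myo1e, a class I myosin, was higher by 0.53 ± 0.06, although its dimmer probe showed 0.14 and did not pass.

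Interferon gamma is the classical inducer of Fcgr1 and Fcgr4, and genes that it induces or that carry its signal were mostly higher. Of 23 measured, 16 rose, 1 fell and 6 missed the threshold (median log2 difference 0.43). The shares of 69.6% higher and 4.3% lower stand beside 11.2% and 12.7% of all genes. The list was chosen with earlier results of these data known. With quantile normalization 12 were called higher and the median was 0.33. The chemokine gene Cxcl9 rose by 1.06 ± 0.06, the feedback inhibitor Socs1 by 1.33 ± 0.11, the kinase gene Jak2 by 0.68 ± 0.05 and the guanylate-binding protein gene Gbp4 by 0.81 ± 0.09, and none of these 4 calls was lost on dropping any array. Each of the other 13 calls was lost on dropping at least 1 array. Cxcl10 (0.06 ± 0.06), chosen for mention with its value known, missed the threshold. Ifngr1, a chain of the receptor for interferon gamma, fell (-0.30 ± 0.06). Whether interferon gamma had a part in the Fc receptor differences was not tested.

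**Figure D4:**
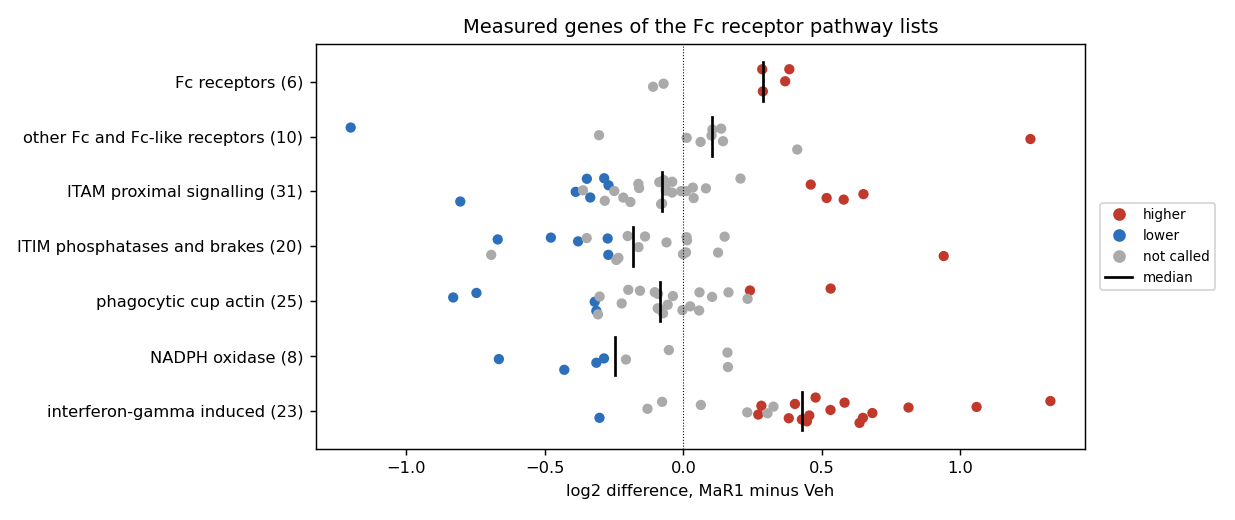
log2 difference, MaR1 minus Veh (horizontal axis), of every measured gene in the Fc receptor set and in 6 lists of related genes (rows, number measured in brackets), coloured by limma call, with the median as a bar. The interferon gamma list has the highest median (0.43) and the NADPH oxidase list the lowest (-0.25).

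On chromosome 1, Fcgr2b, Fcgr4 and Fcgr3 are neighbours, and Fcer1g lies further along in the same interval of the RefSeq gene order. Of the 11 protein-coding genes from Fcgr2b to Fcer1g, 9 were measured. Besides the Fc receptor genes, Cfap126, a cilium gene next to Fcgr3 among the protein-coding genes, was called higher (0.35 ± 0.06, adjusted p = 0.0253 by limma). Sdhc had a difference of 0.21 ± 0.06, Tomm40l -0.20 ± 0.06, Pcp4l1 -0.09 ± 0.11 and Apoa2 -0.66 ± 0.35, and none of these 4 passed. The neighbours were named for their position after the values were known.

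For each called receptor, the 3 called genes whose 4-array profile lay nearest to it (Euclidean distance of profiles centred on their own mean, over 3359 named genes) were listed as a description. They were Clint1, Pnp and Slc35b1 for Fcgr1, Gimap9, Col4a2 and Pcbp3 for Fcgr3, Zbp1, Plekhf2 and Pmm1 for Fcgr4, and Ddhd1, Clns1a and Vwa5a for Fcgr2b. The distances ran from 0.00585 for Clint1 to 0.0222 for Vwa5a on the log2 scale. With 4 arrays in 2 groups, such nearness says little beyond a like difference and spread.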

How the data were processed

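RNA of 4 Kupffer cell samples, 2 with maresin 1 and 2 with vehicle, was hybridised to 1-colour Agilent arrays (Cy3). The deposited intensity values come from Agilent Feature Extraction 11.0.1.1, per the file headers, which subtracts background and removes spatial trends within an array. The deposited value table holds log2 values for 29710 probes, with column medians of 9.07. Its normalization is unstated, and each column followed log2 of the same array's processed signal (r = 1 over probes). Sorted columns differed by at most 0.00217, the form that quantile normalization gives. The value table is therefore not a separate check from the quantile alternative.

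Levels are log2 processed signals from which each array's own 75th percentile (946 and 847 with MaR1, 961 and 988 with Veh) was subtracted on the log2 scale, leaving out control spots and those marked as outliers. No spot was saturated (0 on each array). Between 54.5% and 55.6% of 56605 probes were well above background. Probes were kept if so on both arrays of at least 1 group (31128), named through RefSeq accessions (GRCm38.p6, names only; 32994 probes matched, 23611 kept their design identifier), and each gene was taken at its brightest kept probe. A summed marker level adds linear values over the 75th percentile for genes with a value on all 4 arrays. The number of arrays limits the precision.

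The test was limma 3.58.1 (lmFit, eBayes, two-sided) with p-values adjusted by Benjamini-Hochberg, run under R 4.3.3 with the data.table package (version 1.17.8). A check on simulated data planted only differences larger than those of the Fc receptor genes. It does not show how often changes of their size are found. Figures used matplotlib 3.10.9 in Python 3.11.15. Members and lists were chosen with earlier results of these data known. Named genes were all members, up to 4 called genes per list with the smallest unadjusted p, B2m, Tyrobp, the brightest marker per cell type, and the nearest profiles; others are stated to have been named after their values were seen. No test across lists was made. Alternatives were quantile normalization, normexp on the median spot signal (offset 50), the value table, other filters on dim probes, averaging the probes of 1 gene, each Fc receptor probe in a fit over all kept probes, a variance trend, the replicate number as a block and leaving out each array, where the lone array of a treatment is assumed to vary like the other treatment. Some genes of the lists are counted but not reported here by name.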

Additional observations from a re-analysis of the deposited data

How the results depend on the processing

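Without 1 array at a time, 0 Fc receptor genes were called by limma, and the log2 differences, MaR1 minus Veh, were 0.25 to 0.32 for Fcgr1, 0.33 to 0.44 for Fcgr2b, 0.35 to 0.39 for Fcgr3 and 0.25 to 0.32 for Fcgr4, with unadjusted p under 0.05 in each of these fits. Between 1011 and 1336 genes were then higher and between 916 and 1489 lower, and the called members fell to 1 for other Fc-like receptors, 3 to 6 for ITAM signalling, 2 to 4 for brakes, 2 to 3 for actin, 1 for NADPH oxidase and 4 to 8 for interferon gamma. Quantile normalization left 2 Fc receptor genes called (Fcgr1 0.16 and Fcgr4 0.16 not). The authors' own values, which have the same form, did so too (Fcgr1 0.16, Fcgr4 0.16). With no filter on dim probes, 1087 genes were higher and 972 lower, and 1 Fc receptor gene, Fcgr3, was called; Fcgr1 (0.29), Fcgr2b (0.38) and Fcgr4 (0.28) had adjusted p = 0.0594, and the lists held 0 other Fc-like, 4 ITAM, 3 actin, 2 NADPH oxidase and 6 interferon gamma calls. With the replicate number as a block, 1766 genes were higher and 1926 lower, 1 Fc receptor gene (Fcgr2b) was called, Fcgr1 (0.29), Fcgr3 (0.37) and Fcgr4 (0.28) were not, and the lists held 1 other Fc-like, 5 ITAM, 3 actin and 2 NADPH oxidase calls; the numbers were not shown to pair the arrays (r = -0.029 between the deviations of same-numbered arrays, over genes). A variance trend gave 4524 higher and 4672 lower genes and 4 other Fc-like, 17 ITAM, 12 brake, 13 actin and 7 NADPH oxidase calls, and normexp gave 4 other Fc-like and 10 actin calls. No Fc receptor gene changed direction under any of these alternatives, most of which could not have reversed it. The cause of these shifts was not tested.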
